A study of Mus musculus with 9 samples.

Results

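The expression of 10 Wnt antagonist genes was followed in MC3T3-E1 cells that carried a scrambled shRNA (Scr) or an shRNA against Runx2 (shRunx2). The genes were the secreted antagonists Dkk1, Dkk2, Dkk3, Sfrp1, Sfrp2, Sfrp4, Frzb and Wif1 and the intracellular antagonists Nkd2 and Axin2, found by symbol among the 19937 genes measured, and each was read by 1 probe set. MC3T3-E1 is a preosteoblast line from mouse calvaria, here its subclone 4, and Runx2 is the transcription factor on which osteoblast commitment depends. Cells were infected with lentivirus, sorted for the green fluorescent protein it carries and grown to near confluence. They were taken either as proliferating Scr cells at day 0, or after 9 days in medium with ascorbic acid and beta-glycerophosphate, as differentiating Scr cells or shRunx2 cells at day 9. Each of these 3 groups had 3 arrays labelled as biological replicates, so all cells had been through infection and sorting. The knockdown rested on a single hairpin in a single cell line, and none of the arrays held shRunx2 cells at day 0. A difference already present at day 0 therefore cannot be told apart from one that arose by day 9. Runx2 itself is not analysed here. The labels do not say whether replicates came from separate infections, and p-values then measure the spread between these arrays.

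Wnt proteins bind Frizzled receptors and the co-receptors Lrp5 and Lrp6, which stops the Axin complex from degrading beta-catenin and lets beta-catenin switch on genes together with TCF/LEF factors. Secreted antagonists act outside the cell, Sfrp proteins, Frzb and Wif1 by binding Wnt ligands and Dkk1 and Dkk2 by binding Lrp5 or Lrp6, while Dkk3 is a divergent family member that is not known as a ligand of these co-receptors. Nkd2 acts inside the cell on Dishevelled, and Axin2 is a scaffold of the degradation complex that is itself a standard target gene of the pathway. In bone, Wnt signalling favours osteoblast formation, and several antagonists are made by osteoblasts and their precursors.

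All arrays were closely alike, with correlations of 0.998 to 0.999 within groups and at most 0.997 between groups, and with array medians between 8.42 and 8.51 on the log2 scale. Osteoblast markers were read to check the labelled cell type. The mean log2 level of 9 osteoblast marker genes lay between 10.40 and 10.47 on the Scr day 0 arrays, between 11.43 and 11.47 on the Scr day 9 arrays and between 10.95 and 10.96 on the shRunx2 day 9 arrays. Ibsp, which encodes bone sialoprotein, stood at group means of 7.47, 11.23 and 10.11 in the same order, Alpl (alkaline phosphatase) at 8.51, 9.90 and 9.15, and Sp7 (osterix) at 9.37, 10.42 and 10.22. Over time 5 of these 9 markers rose in Scr cells, beside 14.5% of all genes, and 5 of 9 fell with the knockdown, beside 4.66%. Col1a1, Col1a2, Sparc and Dlx5, also among the 9, passed in neither comparison. In a culture, fewer cells of one kind and less RNA per cell cannot be told apart.

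Of the 10 antagonists, 7 had a promoter sequence in RefSeq (assembly GRCm38.p6). The 250 bases before the annotated start are printed for Dkk2, Sfrp2 and Axin2, which rose from day 0 to day 9. Nkd2 rose too, and its window is not printed. The bases are also printed for Dkk1, which did not pass that test and whose window was the one of the 7 with the RUNX core letters TGTGGT. The printed windows lie at chr3:132085042-132085291 on the plus strand for Dkk2, chr3:83766071-83766320 on the plus strand for Sfrp2, chr11:108920099-108920348 on the plus strand for Axin2 and chr19:30549497-30549746 on the minus strand for Dkk1. Capitals mark the RUNX core (TGTGGT) or the TCF/LEF core (CTTTGA) on either strand.
Dkk2: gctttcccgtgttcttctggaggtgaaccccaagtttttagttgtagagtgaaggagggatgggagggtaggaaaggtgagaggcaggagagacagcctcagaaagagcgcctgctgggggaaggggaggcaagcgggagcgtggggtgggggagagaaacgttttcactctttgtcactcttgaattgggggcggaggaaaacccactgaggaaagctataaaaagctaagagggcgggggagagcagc
Sfrp2: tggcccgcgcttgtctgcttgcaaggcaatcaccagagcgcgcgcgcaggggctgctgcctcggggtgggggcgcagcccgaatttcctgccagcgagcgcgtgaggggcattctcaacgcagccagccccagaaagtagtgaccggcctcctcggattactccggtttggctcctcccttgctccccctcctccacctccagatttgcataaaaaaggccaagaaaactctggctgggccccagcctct
Axin2: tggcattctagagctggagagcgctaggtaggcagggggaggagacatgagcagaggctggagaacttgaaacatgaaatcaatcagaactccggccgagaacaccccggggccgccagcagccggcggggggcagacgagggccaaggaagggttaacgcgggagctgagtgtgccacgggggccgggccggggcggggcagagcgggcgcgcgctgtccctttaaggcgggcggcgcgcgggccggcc
Dkk1: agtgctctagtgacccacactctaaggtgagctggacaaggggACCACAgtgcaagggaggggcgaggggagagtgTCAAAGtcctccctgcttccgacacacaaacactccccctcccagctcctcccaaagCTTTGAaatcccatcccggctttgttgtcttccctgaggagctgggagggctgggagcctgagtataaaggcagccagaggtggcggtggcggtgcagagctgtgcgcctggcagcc

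In the Dkk1 window the RUNX core began 207 bases before the start on the opposite strand, and the TCF/LEF core stood 174 bases before it on the opposite strand and 117 bases before it on the gene's own strand. Neither set of letters was found in the windows of Dkk2, Sfrp2, Axin2, Wif1 or Nkd2, and Frzb had the TCF/LEF core once, 95 bases before its start. Only these exact letters were searched, so variants of either core may be present in any window. Over all 32851 promoter windows of the same length, 14% held the RUNX core and 13.8% the TCF/LEF core. A match describes the letters of the window, and binding was not measured here. The study mapped Runx2 binding in MC3T3-E1 cells by sequencing immunoprecipitated chromatin and placed most of it outside promoters. Those data were not used here.

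With the knockdown at day 9, 3 of the 10 antagonists rose (Dkk2, Sfrp1 and Sfrp2), 1 fell (Nkd2) and 6 did not pass the test. A gene is said to rise or fall where limma gave an adjusted p under 0.05 over all genes. By that rule 2.73% of all genes rose with the knockdown and 4.66% fell. With a change of at least 1.5-fold required as well, Dkk2 was called higher and no antagonist lower, beside 0.396% of all genes higher and 0.196% lower. The arrays of the shRunx2 and Scr groups did not overlap for 5 of the 10 antagonists, against 23.7% of all genes. The median log2 change of the 10 genes was 0.053, beside -0.0041 over all genes. The 10 genes were chosen with earlier results of these data known, so these counts describe them and do not test them.

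From day 0 to day 9 in Scr cells, 4 of the 10 antagonists rose (Dkk2, Axin2, Nkd2 and Sfrp2), 1 fell (Wif1) and 5 did not pass. This change was broad, as 14.5% of all genes rose and 17.1% fell, and the arrays of the 2 time points did not overlap for 5 of the 10 antagonists and for 40.2% of all genes. At 1.5-fold or more Dkk2 was called higher and no antagonist lower, beside 2.89% of all genes higher and 2.25% lower. Median log2 changes were 0.048 for the 10 genes and -0.016 for all genes. The knockdown and the time course share the Scr day 9 arrays, so the values of both are given side by side and are not independent of each other.

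**Figure D1:**
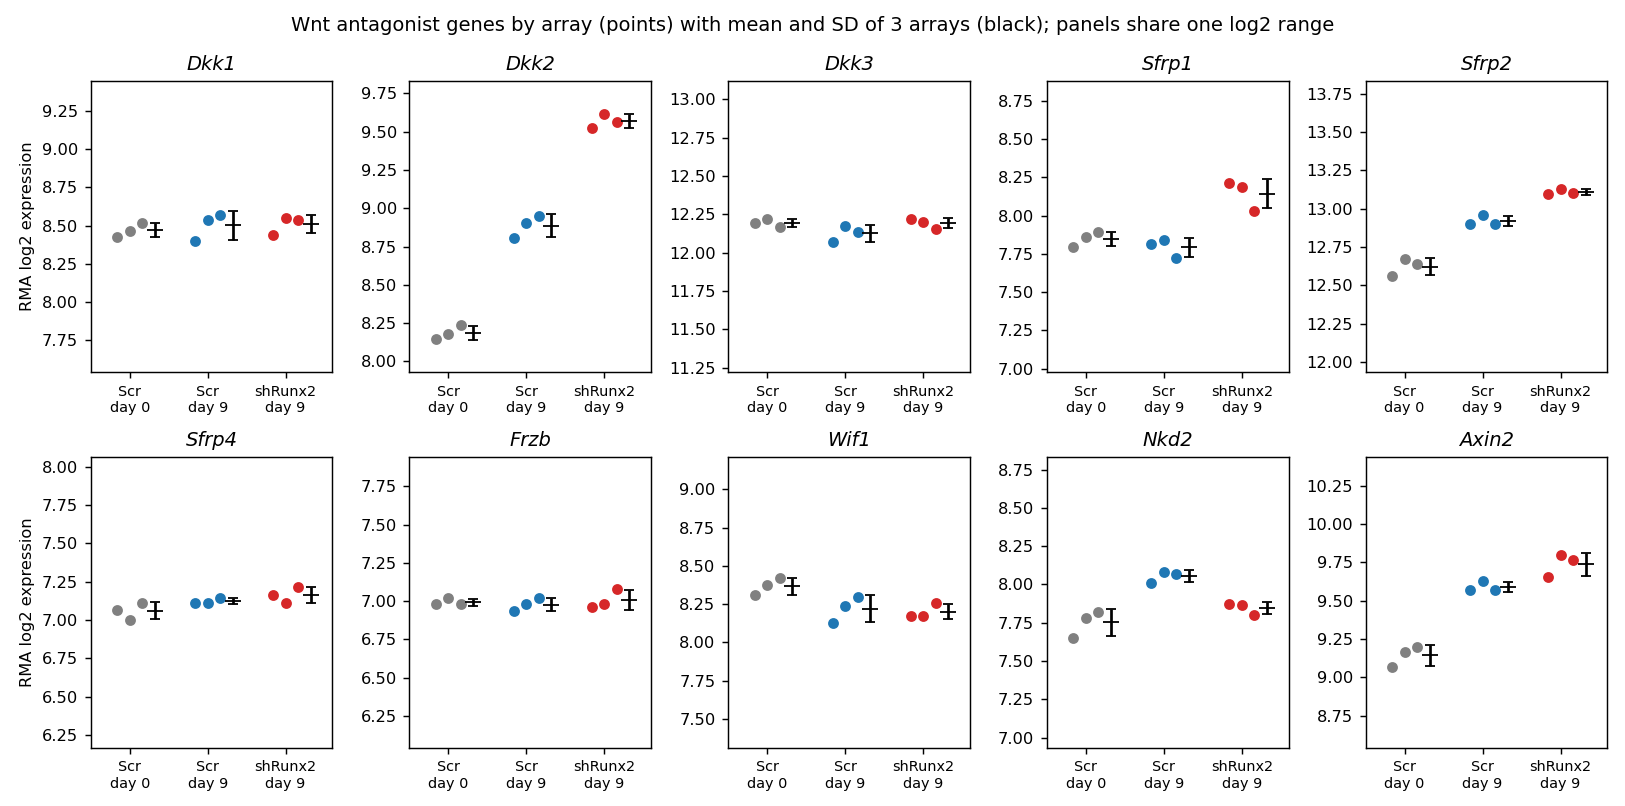
RMA log2 expression of the 10 Wnt antagonist genes on each array, with Scr day 0 in grey, Scr day 9 in blue and shRunx2 day 9 in red; black bars give the mean and SD of 3 arrays. The 3 groups of Dkk2 stand apart from each other, and Sfrp1 is at 8.03 to 8.21 on the shRunx2 arrays and at 7.72 to 7.89 on the Scr arrays.

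Dkk2, a secreted ligand of Lrp5 and Lrp6, moved in both comparisons. Its log2 expression was 8.15, 8.18 and 8.24 on the Scr day 0 arrays, 8.81, 8.90 and 8.95 on the Scr day 9 arrays and 9.53, 9.61 and 9.56 on the shRunx2 day 9 arrays. The 3 groups did not overlap, with the shRunx2 arrays highest and the day 0 arrays lowest. Dkk2 rose 1.62-fold from day 0 to day 9 in Scr cells (log2 change 0.70 ± 0.046, SE; adjusted p = 3.64e-07). It was 1.60-fold higher again in shRunx2 cells than in Scr cells at day 9 (log2 change 0.68 ± 0.046, SE; adjusted p = 5.89e-06). Against Scr cells at day 0, the shRunx2 cells held 2.61-fold more (log2 change 1.38 ± 0.046, SE; adjusted p = 1.16e-09). With the knockdown 63 genes rose by more than Dkk2, and 423 did so from day 0 to day 9.

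Interferon-stimulated genes moved the same way across the groups as Dkk2. The mean log2 level of 17 such genes lay between 8.49 and 8.55 on the Scr day 0 arrays, between 9.07 and 9.27 on the Scr day 9 arrays and between 10.18 and 10.32 on the shRunx2 day 9 arrays. All 17 measured of the 20 listed rose with the knockdown, 14 of them by at least 1.5-fold, and 13 rose and 1 fell from day 0 to day 9. The list was chosen with earlier results of these data known, so these counts describe it and do not test it. Of all genes, 2.73% rose with the knockdown and 0.396% did so by at least 1.5-fold, and over time 14.5% rose and 17.1% fell. Ifit3, Oas2 and Usp18, genes of the antiviral response, rose 3.37-fold, 3.78-fold and 3.09-fold with the knockdown. Their part in the change of Dkk2 or of any other antagonist was not tested.

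Over the 9 arrays, the 5 genes whose log2 values correlated most with those of Dkk2 were Gpm6b (Pearson r = 0.997), Psmb9 (0.993), Cyp2u1 (0.993), Cmpk2 (0.993) and Lipg (0.992). Psmb9 encodes a subunit of the immunoproteasome, Cmpk2 a nucleotide kinase of the interferon response, Cyp2u1 a cytochrome P450, Lipg a lipase and Gpm6b a membrane glycoprotein. Their changes in sequence from day 0 to day 9 and from Scr to shRunx2 were 0.74 and 0.59 on the log2 scale for Gpm6b and 0.57 and 0.41 for Psmb9. For Cyp2u1 they were 0.24 and 0.29, for Cmpk2 0.63 and 0.73, and for Lipg 0.60 and 0.71. The 9 points fall in 3 groups of 3 and are not independent, and 196 of the 19937 genes had r over 0.95 with Dkk2.

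**Figure D2:**
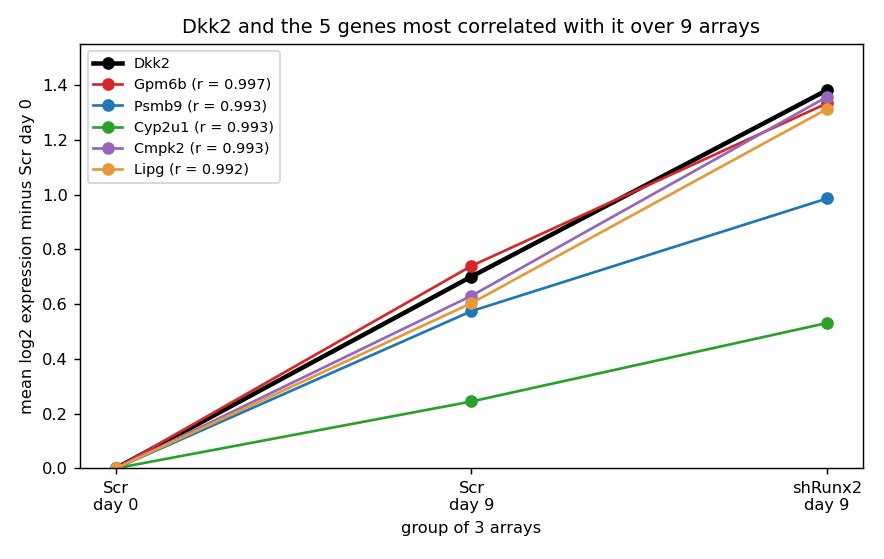
Mean log2 expression of Dkk2 (black) and of the 5 genes most correlated with it over 9 arrays, each as the difference from its own Scr day 0 mean; points are means of 3 arrays. Dkk2 reached 0.70 in Scr cells and 1.38 in shRunx2 cells at day 9.

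Sfrp2, a Wnt-binding protein with a Frizzled-like domain, followed the same order at smaller size. Its log2 expression was 12.56, 12.67 and 12.64 in Scr cells at day 0, 12.90, 12.96 and 12.90 in Scr cells at day 9 and 13.10, 13.13 and 13.10 in shRunx2 cells at day 9. The 3 groups did not overlap, and the spread within groups was the smallest of the 10 antagonists (SD 0.039 pooled over groups). It rose 1.23-fold from day 0 to day 9 (log2 change 0.30 ± 0.039, SE; adjusted p = 9.88e-05) and 1.14-fold with the knockdown (log2 change 0.19 ± 0.039, SE; adjusted p = 0.0123). Both calls stood under every alternative analysis, with adjusted p between 0.00206 and 0.0491 for the knockdown. Against day 0 the shRunx2 cells were 1.40-fold higher (adjusted p = 1.64e-06).

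Sfrp1, a close relative of Sfrp2 that also binds Wnt ligands, was higher in the shRunx2 cells than in either Scr group. Its log2 values were 7.80, 7.86 and 7.89 in Scr cells at day 0, 7.81, 7.84 and 7.72 in Scr cells at day 9 and 8.21, 8.19 and 8.03 in shRunx2 cells. The 2 Scr groups overlapped and the shRunx2 arrays lay above all 6 Scr arrays. All these values lay below the array medians of 8.42 to 8.51. The fit restricted to genes above the median expression did not include Sfrp1, so its call was not tested there. The knockdown change was 1.28-fold (log2 0.35 ± 0.053, SE; adjusted p = 0.00194), and 194 genes rose by more. From day 0 to day 9 in Scr cells the log2 change was -0.056 ± 0.053 (SE; adjusted p = 0.500), with a 95% interval of 0.887-fold to 1.04-fold. The shRunx2 cells also stood 1.23-fold above Scr cells at day 0 (adjusted p = 9.36e-04).

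Sfrp4 and Frzb, which also carry the Wnt-binding domain, did not pass in any of the 3 comparisons. Sfrp4 was at 7.06, 7.00 and 7.11 in Scr cells at day 0, 7.11, 7.11 and 7.14 in Scr cells at day 9 and 7.16, 7.11 and 7.22 in shRunx2 cells, so that all neighbouring groups met or overlapped. Its 95% interval for the knockdown was 0.966-fold to 1.10-fold (adjusted p = 0.669) and for the time course 0.981-fold to 1.11-fold (adjusted p = 0.303). Frzb, also called Sfrp3, was at 6.98, 7.02 and 6.98, then 6.94, 6.98 and 7.02, then 6.96, 6.98 and 7.08 in the same order, and its groups overlapped throughout. Its intervals were 0.958-fold to 1.09-fold for the knockdown (adjusted p = 0.763) and 0.929-fold to 1.05-fold for the time course (adjusted p = 0.848). All values of both genes lay below the array medians of 8.42 to 8.51, and RMA compresses changes of dim genes. The intervals of both therefore do not bound the changes in their transcripts. For both genes 4 of the 9 arrays carried exactly the same deposited value, 7.11 for Sfrp4 and 6.98 for Frzb to 2 decimals. Such ties of 3 or more arrays occur in 28.1% of all genes, and leave fewer distinct values to estimate the spread from.

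Wif1, which binds Wnt ligands through its own WIF domain, was the antagonist that fell in Scr cells. Its log2 values were 8.31, 8.37 and 8.42 at day 0 and 8.12, 8.24 and 8.30 at day 9, and 8.17, 8.18 and 8.26 in shRunx2 cells. Both day 9 groups lay below the day 0 arrays and overlapped each other. The fall was 1.11-fold from day 0 to day 9 (log2 change -0.15 ± 0.051, SE; adjusted p = 0.0449), and the knockdown change was -0.019 ± 0.051 (SE; adjusted p = 0.893), with a 95% interval of 0.914-fold to 1.07-fold. Wif1 was among the genes below the median expression, where RMA compresses changes, so this interval does not bound the change in its transcript. The call for the time course was narrow. It was lost with the 6 Scr arrays alone (adjusted p = 0.0763). It was also lost when replicate 2 (0.108) or 3 (0.150) of Scr day 0, replicate 1 (0.155) or 2 (0.0818) of Scr day 9, or replicate 1 (0.0592) or 2 (0.0600) of shRunx2 was left out.

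Dkk1 and Dkk3 did not pass in any of the 3 comparisons. Dkk1, the best known Lrp6 ligand that blocks Wnt signalling, was at 8.43, 8.47 and 8.52 in Scr cells at day 0, 8.40, 8.54 and 8.57 in Scr cells at day 9 and 8.44, 8.55 and 8.54 in shRunx2 cells. The 3 groups overlapped fully. Its 95% interval was 0.929-fold to 1.09-fold for the knockdown (adjusted p = 0.957) and 0.944-fold to 1.11-fold for the time course (adjusted p = 0.722). Dkk3 was at 12.19, 12.22 and 12.17, then 12.07, 12.18 and 12.14, then 12.22, 12.20 and 12.16 in the same order of groups. Its groups overlapped too, with intervals of 0.985-fold to 1.11-fold for the knockdown (adjusted p = 0.422) and 0.899-fold to 1.01-fold for the time course (adjusted p = 0.252). On the scale of the array values, a change of 1.5-fold lay outside all of these intervals. Dkk1 was among the genes below the median expression, and RMA compresses changes of dim genes. Its intervals therefore do not bound the change in its transcript.

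The intracellular antagonists rose together from day 0 to day 9 and stood on opposite sides of 0 with the knockdown. Nkd2 was at 7.65, 7.78 and 7.82 in Scr cells at day 0, 8.01, 8.08 and 8.07 in Scr cells at day 9 and 7.87, 7.87 and 7.80 in shRunx2 cells. The Scr day 9 arrays lay above both other groups, which overlapped. All Nkd2 values lay below the array medians of 8.42 to 8.51. Nkd2 rose 1.23-fold from day 0 to day 9 (log2 change 0.30 ± 0.048, SE; adjusted p = 4.65e-04) and was 1.15-fold lower in shRunx2 than in Scr cells at day 9 (log2 change -0.21 ± 0.048, SE; adjusted p = 0.0248). Between shRunx2 cells at day 9 and Scr cells at day 0 the log2 change was 0.094 ± 0.048 (SE; adjusted p = 0.176). The knockdown call for Nkd2 was lost when replicate 2 (adjusted p = 0.105) or 3 (0.0738) of Scr day 9, or any one replicate of shRunx2 (0.0606, 0.0569 and 0.0922 for replicates 1, 2 and 3), was left out, while the log2 change stayed between -0.23 and -0.18.

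Axin2 was at 9.07, 9.16 and 9.20 in Scr cells at day 0, 9.57, 9.63 and 9.57 in Scr cells at day 9 and 9.65, 9.80 and 9.76 in shRunx2 cells. The groups did not overlap, and the shRunx2 arrays were the highest. Axin2 rose 1.36-fold from day 0 to day 9 (log2 change 0.45 ± 0.049, SE; adjusted p = 2.36e-05). The knockdown change of 0.15 ± 0.049 (SE) on the log2 scale did not pass (adjusted p = 0.103), with a 95% interval of 1.03-fold to 1.19-fold before adjustment over genes. It passed under 1 alternative, the fit restricted to genes above the median expression (adjusted p = 0.0499), and elsewhere the adjusted p reached 0.269. Against Scr cells at day 0 the shRunx2 cells were 1.51-fold higher (adjusted p = 1.97e-06).

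**Figure D3:**
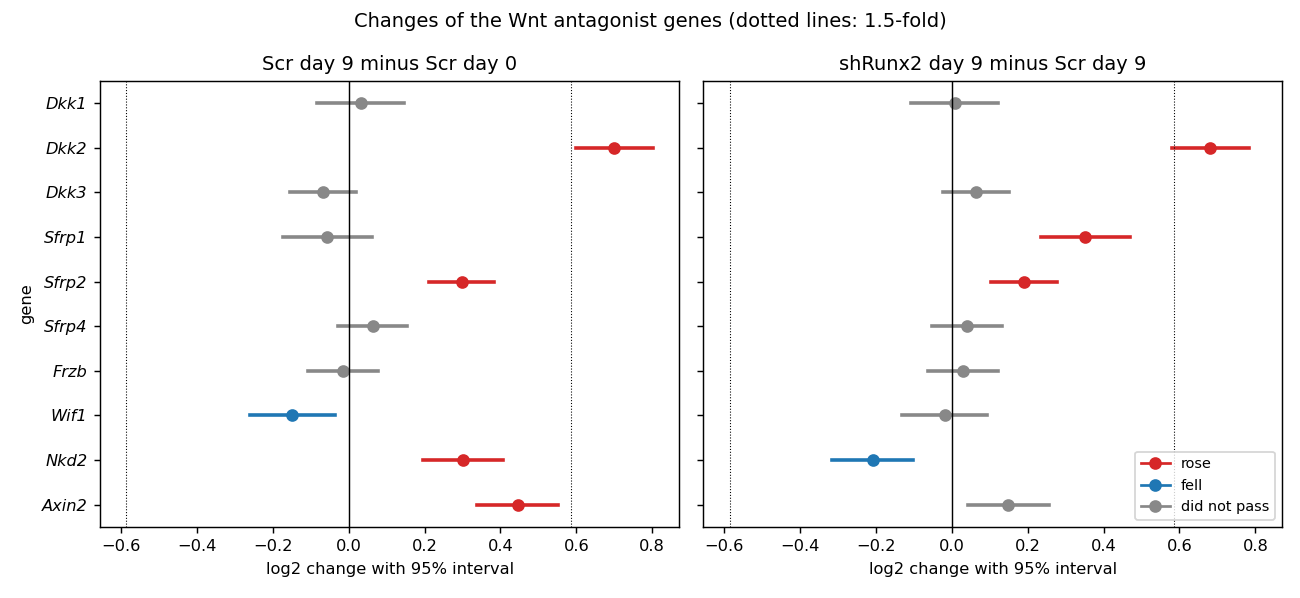
Log2 change of each Wnt antagonist gene with its unadjusted 95% interval, from Scr day 0 to Scr day 9 (left) and from Scr day 9 to shRunx2 day 9 (right); red rose, blue fell and grey did not pass, and dotted lines mark 1.5-fold. Dkk2 passed the 1.5-fold line in both panels, at 0.70 and 0.68, and Nkd2 changed side from 0.30 to -0.21.

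Set against Scr cells at day 0, the shRunx2 cells at day 9 had 4 antagonists higher (Dkk2, Axin2, Sfrp2 and Sfrp1) and 1 lower (Wif1). In that comparison 13.8% of all genes rose and 20.4% fell. Wif1 was 1.12-fold lower (log2 change -0.17 ± 0.051, SE; adjusted p = 0.0240), a call lost without replicate 2 or 3 of Scr day 0 (adjusted p = 0.0661 and 0.0882) or replicate 1 or 2 of shRunx2 (0.0851 and 0.0772). Sfrp4 stood 0.10 higher on the log2 scale without passing (adjusted p = 0.0771). The comparison shares arrays with both of the others and mixes time with hairpin.

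**Figure D4:**
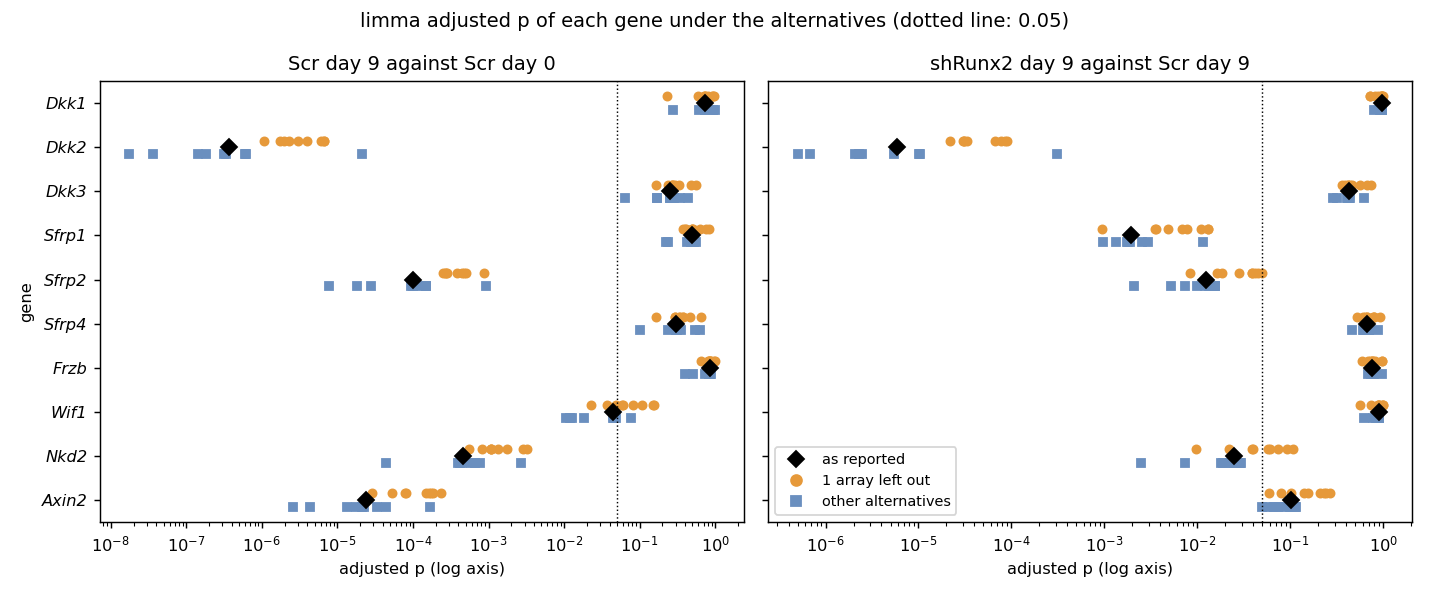
Adjusted p (log axis) of each Wnt antagonist gene as reported (black diamonds), with 1 array left out (orange circles) and under the other alternative analyses (blue squares), for Scr day 9 against Scr day 0 (left) and shRunx2 day 9 against Scr day 9 (right); the dotted line marks 0.05. Dkk2, Sfrp1 and Sfrp2 stayed left of the line for the knockdown, while Nkd2 lay on both sides of it (0.00245 to 0.105), as did Wif1 for the time course. Sfrp1, Nkd2 and Wif1 were not tested in the fit restricted to genes above the median expression.

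Antagonists outside the 10 showed a mixed picture. Of 21 others, 2 rose and 1 fell with the knockdown, beside 2.73% and 4.66% of all genes. Dact2, a Dishevelled-binding protein, was at mean log2 levels of 9.46 at day 0, 9.22 at day 9 and 9.49 in shRunx2 cells, and rose by 0.27 ± 0.043 (log2, SE) with the knockdown (adjusted p = 0.00270). Sostdc1, a secreted antagonist of Wnt and BMP signals, rose by 0.23 ± 0.057 (adjusted p = 0.0302), and Ctnnbip1, which keeps beta-catenin from TCF factors, fell by 0.14 (adjusted p = 0.0332). Dact2 kept its call under all 18 alternatives. That of Sostdc1 was lost when replicate 1 or 2 of Scr day 9 or any one replicate of shRunx2 was left out (adjusted p up to 0.112). That of Ctnnbip1 was lost under 9 of 18 alternatives, namely the replicate block (0.0591), repeated quantile normalization and leaving out replicate 2 of Scr day 0 or any one day 9 array (up to 0.122). From day 0 to day 9, 4 of the 21 rose and 4 fell, beside 14.5% and 17.1% of all genes. Igfbp4, an IGF-binding protein that also interferes with Wnt receptors, rose 1.78-fold, and Rnf43, a ligase that removes Frizzled from the surface, and Dact1 each rose 1.38-fold. Sost, which encodes sclerostin, was at mean log2 levels of 8.94, 8.87 and 8.95 and did not pass in either comparison.

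No Wnt ligand or ligand-like enhancer passed with the knockdown as fitted. With limma 0 of 19 Wnt genes were called, beside 2.73% of all genes higher and 4.66% lower. Of the 19, 2 had an unadjusted p under 0.05, and the log2 changes of all 19 lay between -0.19 and 0.10. The 19 differed in brightness, with group means of 7.46 to 7.85 for Wnt1, Wnt2b, Wnt7a and Wnt8b and 10.55 to 10.74 for Wnt10a. Array medians were 8.42 to 8.51, and RMA compresses changes of dim genes. Wnt7b had an SD of 0 in both Scr groups, at a mean of 8.41. A dim gene without a call is therefore not shown to be unchanged. Wnt10a (adjusted p = 0.0754) was called lower under 4 of 18 alternatives, which were the replicate block (0.0298), leaving out replicate 3 of shRunx2, the filter on dim genes and array weights, and Wnt9a was called lower with array weights (0.0189). Of the 5 genes for R-spondins and Norrin 0 were called, 1 was under 0.05 unadjusted, and the changes lay between -0.051 and 0.17. Over time in Scr cells, Wnt5a, a ligand best known for signalling without beta-catenin, fell 1.76-fold (adjusted p = 3.67e-07), and Rspo2, an R-spondin that strengthens Wnt signals, fell 3.31-fold (adjusted p = 4.59e-08). Wnt9a and Wnt6 rose 1.14-fold and 1.11-fold. The count of Wnt genes that rose was 1 without replicate 2 of Scr day 0 or replicate 3 of Scr day 9, with centring and with repeated quantile normalization. The count that fell went from 1 to 2 without replicate 3 of Scr day 9, and to 4 with centring or repeated quantile normalization.

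Of 20 receptors and co-receptors, 1 rose with the knockdown, beside 2.73% of all genes. It was Fzd6, by 0.17 ± 0.045 on the log2 scale (adjusted p = 0.0492), and its call was lost under 11 of 18 alternatives. Among them were the replicate block (0.0779), the 2 groups alone and leaving out any one array other than replicate 1 of Scr day 0. From day 0 to day 9, 7 receptors rose and 5 fell, beside 14.5% and 17.1% of all genes, and 3 fell without replicate 2 or 3 of Scr day 9. The Frizzled receptors Fzd9 and Fzd1 rose 1.57-fold and 1.33-fold, while Lrp6, a co-receptor bound by Dkk1 and Dkk2, fell 1.33-fold and the Wnt receptor Ryk 1.45-fold.

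A list of 17 genes held cytoplasmic components and the Wnt secretion genes Wls and Porcn. With the knockdown none of the 17 rose and 5 fell (Wls, Dvl2, Dvl3, Csnk1a1 and Tnks2), beside 2.73% and 4.66% of all genes. Of the 17, 3 rose and 6 fell from day 0 to day 9, beside 14.5% and 17.1% of all genes. Wls, which carries Wnt proteins to the cell surface, rose 1.24-fold over time (adjusted p = 2.20e-05) and was 1.14-fold lower with the knockdown (adjusted p = 0.00559). Dvl2 and Dvl3 encode Dishevelled proteins, Csnk1a1 a kinase of the degradation complex and Tnks2 a tankyrase that marks Axin for destruction. Their knockdown changes lay between -0.21 and -0.13 on the log2 scale. The count of 5 dropped to 2 when replicate 2 of Scr day 9 or replicate 1 of shRunx2 was left out. It dropped to 3 when replicate 1 of Scr day 9 or replicate 3 of shRunx2 was left out, or when quantile normalization was repeated. Wls and Dvl2 kept their calls under all 18 alternatives, whereas Dvl3 lost its call under 13, the replicate block included (adjusted p = 0.0678). The 6 that fell over time were 3 without replicate 2 or 3 of Scr day 9.

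Of 13 TCF/LEF factors and nuclear cofactors measured, 1 rose and 1 fell with the knockdown, beside 2.73% and 4.66% of all genes. Bcl9, a beta-catenin cofactor, rose by 0.19 ± 0.035 on the log2 scale, and Tcf7l1 fell by 0.16. Bcl9 kept its call under all 18 alternatives. The call of Tcf7l1 was lost under 9, namely the replicate block (adjusted p = 0.0579), the 2 groups alone, repeated quantile normalization and leaving out replicate 2 of Scr day 0, replicate 1 or 2 of Scr day 9 or any one replicate of shRunx2 (up to 0.141). From day 0 to day 9, 3 of the 13 rose and 7 fell, beside 14.5% and 17.1% of all genes. Tle2, a Groucho-type repressor, rose 1.49-fold, while its relative Tle3 fell 1.28-fold and the transcription factor Tcf7l2 fell 1.29-fold. Tcf7 is not analysed here.

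Target genes of the pathway went both ways. Of 18 measured, 1 rose and 2 fell with the knockdown, beside 2.73% and 4.66% of all genes. Over time 6 rose and 4 fell, beside 14.5% and 17.1% of all genes. Tnfrsf19, a TNF receptor family member, was at mean log2 levels of 8.82 at day 0, 11.14 at day 9 and 10.22 in shRunx2 cells, which is a 5.00-fold rise over time (adjusted p = 8.94e-12) and a level 1.90-fold lower with the knockdown (adjusted p = 2.67e-07). Tnfrsf11b, which encodes the decoy receptor osteoprotegerin, was at 11.06, 10.18 and 10.62, and so fell 1.84-fold over time and rose 1.36-fold with the knockdown (adjusted p = 2.09e-04). Ccn4, a secreted matrix protein, fell by 0.22 on the log2 scale with the knockdown (adjusted p = 0.0383), a call lost with the 2 groups alone and without replicate 1 of Scr day 0, replicate 1 or 2 of Scr day 9 or any one replicate of shRunx2 (adjusted p up to 0.158). Tnfrsf19 and Tnfrsf11b kept their knockdown calls under all 18 alternatives. Fosl1, a member of the AP-1 transcription factors, fell 5.86-fold over time and stood 0.025 ± 0.057 (log2, SE) higher with the knockdown (adjusted p = 0.872).

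Across these 7 lists, which hold 104 measured genes beside the 10 antagonists, 5 rose and 9 fell with the knockdown, beside 2.73% and 4.66% of all genes. Their median log2 change was 0.0020, beside -0.0041 over all genes. From day 0 to day 9, 23 rose and 27 fell, beside 14.5% and 17.1% of all genes. The median over time was -0.025, beside -0.016 over all genes. These knockdown counts were unsteady, and array weights brought the genes that fell to 14. The count of genes that rose was 3 when replicate 1 or 2 of Scr day 9, or replicate 1 or 3 of shRunx2, was left out. The count of genes that fell was 3 when replicate 2 of Scr day 9 or replicate 1 of shRunx2 was left out, 4 when replicate 1 of Scr day 9 was, and 5 when replicate 2 or 3 of shRunx2 was.

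**Figure D5:**
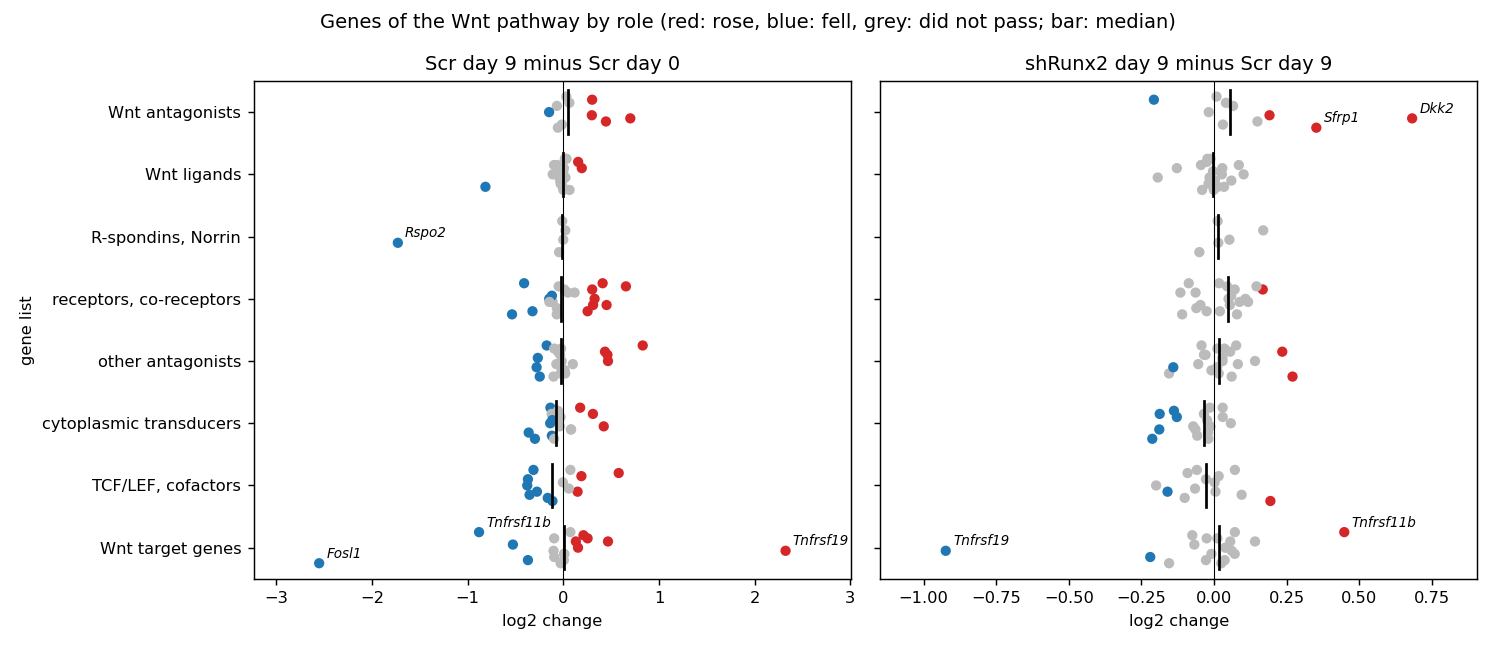
Log2 change of every measured gene of the Wnt pathway by role, from Scr day 0 to Scr day 9 (left) and from Scr day 9 to shRunx2 day 9 (right; the axes differ in range); red rose, blue fell, grey did not pass, and bars are list medians. For the knockdown Dkk2 (0.68), Tnfrsf11b (0.45) and Sfrp1 (0.35) lie farthest to the right and Tnfrsf19 (-0.92) farthest to the left. The list of cytoplasmic transducers also holds the Wnt secretion genes Wls and Porcn.

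Markers of other cell types were read for the knockdown, with which 2.73% of all genes rose and 4.66% fell. With the knockdown 3 of 7 tendon and fibroblast markers rose (Cd34 by 0.34, Mkx by 0.30 and Scx by 0.20 on the log2 scale), and the mean level of the list was 9.01 to 9.04 on the Scr day 0 arrays, 8.81 to 8.88 on the Scr day 9 arrays and 8.96 to 9.01 on the shRunx2 arrays. Of 10 chondrocyte markers 1 rose (Sox9, by 0.20), and none of 8 adipocyte, 8 muscle and 6 endothelial markers passed, with 0, 4 and 0 of them under 0.05 unadjusted. Of 8 macrophage and leukocyte markers 1 rose (Lyz2, by 0.42) and 1 fell (Fcer1g, by 0.27). The calls of Lyz2 and Scx were lost with 1 array left out, that of Lyz2 without replicate 2 or 3 of Scr day 9 or of shRunx2 (adjusted p up to 0.0583) and that of Scx without any one replicate of Scr day 9 or replicate 2 of shRunx2 (up to 0.0706). The part of these in the changes of the antagonists was not tested.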

How the data were processed

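RNA of 9 samples was measured on 9 arrays of the Affymetrix Mouse Gene 1.0 ST type. The authors deposited log2 values from RMA, a procedure that removes background, gives all arrays one distribution and combines the probes of a set. Medians of the deposited values still differed between arrays (8.42 to 8.51). The submitters' processing notes name RMA and limma, the study's methods name the Bioconductor packages affy and limma, a filtering step in the methods is not described, and a genome build is not given in the sources used here. RMA compresses changes of dim genes. Arrays have no read depth, and the precision is limited by the number of arrays (3 per group).

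Of 34760 probe sets, 21640 carried 1 symbol in the platform annotation, 1321 several and 11799 none. The probe set with the highest mean over all arrays stood for a gene with several, which left 19937 genes. Of their identifiers 19855 were found in the RefSeq table of GRCm38.p6 and no symbol changed. Some genes are not reported here.

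All tests were two-sided and used lmFit and eBayes of limma 3.58.1 (R 4.3.3) in 1 model of group means over the 9 arrays, without covariates or further normalization. Adjustment was by Benjamini-Hochberg across all genes, with calls at 0.05 and, where stated, at least 1.5-fold. The procedure was tested on simulated data. Groups came from the sample labels. Named genes were the 10 antagonists, up to 4 genes of each pathway list with the smallest adjusted p among those called, the 5 genes most correlated with each antagonist called at 1.5-fold, and 3 osteoblast and 3 interferon markers. Others (all knockdown calls of the pathway and marker lists not among these, Sost, and the osteoblast markers without a call) were named after their values were seen. The 10 genes and all lists were chosen with earlier results of these data known. Alternatives were fits on the arrays of 2 groups, a replicate block, each array left out, median centring, repeated quantile normalization, a filter on dim genes, other probe set rules, array weights and a trended robust prior. For the pathway lists, those other than leaving out arrays, centring and quantile normalization were added after seeing the data.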

Additional observations from a re-analysis of the deposited data

How the results depend on the processing

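Of 348 values of the 10 antagonists under the alternatives, for the knockdown and the time course, 324 kept direction and call, 12 lost the call, 1 gained it and 11 changed sign. For shRunx2 day 9 against Scr day 0 these were 161 of 174, 4, 2 and 7. The changes called for Dkk2, Sfrp1 and Sfrp2, and for Axin2 and Nkd2 over time, kept their calls wherever they were tested. The filter on dim genes removed Dkk1, Frzb, Nkd2, Sfrp1, Sfrp4 and Wif1, so with it no antagonist was lower (0) in any of the 3 comparisons, nor was any (0) lower over time with the arrays of 2 groups alone. Leaving out 1 array gave 0 to 1 antagonists lower in each comparison, 3 to 5 pathway genes higher and 3 to 8 lower with the knockdown, while repeated quantile normalization gave 5 lower and array weights, added for these genes after seeing the data, 14. Sfrp4 passed against day 0 without Scr day 0 replicate 3 (adjusted p = 0.0426) and with array weights (0.0244).

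Signs changed for values not called in any analysis, and the cause was not tested. Dkk1 over time was -0.0013 with centring, -0.0060 with quantile normalization and -0.0034 to 0.085 with 1 array left out. Its knockdown change was -0.016 with quantile normalization, -0.023 with array weights and -0.045 to 0.043 with 1 array left out, and its change against day 0 was -0.022 with quantile normalization. Against day 0 Dkk3 was 0.028 with quantile normalization and -0.015 to 0.015 with 1 array left out. Frzb was -0.034 to 0.0054 over time, -0.0062 to 0.052 with the knockdown and -0.021 to 0.037 against day 0 with 1 array left out, and in the last -0.020 with centring and -0.037 with quantile normalization. Wif1 was -0.066 to 0.020 with the knockdown with 1 array left out.

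Over all genes, 544 rose and 930 fell with the knockdown. These were 355 and 503 without Scr day 9 replicate 2, and 917 and 1673 with array weights. The lower count was 562 without Scr day 9 replicate 1 and 507 without shRunx2 replicate 1. Over time 2895 genes rose and 3413 fell, against 2476 and 4395 with median centring and 2911 and 4019 with repeated quantile normalization. The all-gene shares given beside the time course therefore depend on the normalization. Deviations from group means correlated positively between same-numbered Scr arrays of day 0 and day 9 (0.29, 0.082 and 0.29 for replicates 1, 2 and 3). Same-numbered pairs with shRunx2 arrays ran from -0.11 to 0.13, and differently numbered pairs over all groups from -0.29 to 0.12. The labels do not say that the numbers pair arrays, and the main model did not pair them. With the replicate block 543 rose and 907 fell with the knockdown, 3009 rose and 3457 fell over time, no antagonist changed its call, and in the knockdown the pathway genes Fzd6, Ctnnbip1, Dvl3 and Tcf7l1 lost theirs while Wnt10a and Znrf3 gained one.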
